A study of Rattus norvegicus with 10 samples.

Results

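Muscle labelled MPS was set against muscle labelled NC, both from Sprague Dawley rats and both measured by messenger RNA sequencing. MPS stands for myofascial pain syndrome, in which taut, tender spots form in a muscle. Of the 10 libraries of the series, 7 belong to this comparison by their treatment labels: MPS 10, MPS 11 and MPS 14, and NC 4, NC 5, NC 6 and NC 7. The other 3, labelled TZG and titled as drug, were not compared here. They entered the fits, and so bore on which genes were tested, on the scaling between libraries and on the estimate of the spread. The labels spell out neither NC nor how the pain model was made, and they name no muscle, sex, age, time or batch. Nothing says that the libraries came from separate animals, so every p-value measures the spread between these libraries, which may be technical.

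Skeletal muscle fibres draw their energy from glycolysis in the cytosol and from the respiratory chain in mitochondria, whose subunits come partly from nuclear genes and partly from the mitochondrial genome. Between the fibres lie capillaries, motor and sensory nerve endings with their Schwann cells, resident macrophages, and fibro-adipogenic progenitors, which make the connective tissue. Painful muscle is studied for the peptides, lipids and nucleotides that excite its sensory endings, among them CGRP, prostaglandins, leukotrienes and ATP. A library from a piece of muscle measures all of these cells at once, so fewer cells of a type and less RNA per cell cannot be told apart in anything that follows.

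The total counts were 16497745, 18179144 and 13642002 in MPS 10, MPS 11 and MPS 14, against 12616160 to 13581646 in the NC libraries. MPS 14 stood apart from the other 6. The actin of skeletal muscle, Acta1, had 34514, 39848 and 2320 CPM (counts scaled to a common library total) in MPS 10, MPS 11 and MPS 14, against 36666 to 43758 CPM in NC. A limit of 10000 CPM for Acta1 therefore left MPS 14 outside, with MPS 10 the nearest library inside it. Ptprc, the CD45 phosphatase of all leukocytes, had 3.09, 1.43 and 1887 CPM in the 3 MPS libraries, against 3.96 to 9.28 CPM in NC. Muscle identity genes summed to 130970, 146410 and 6355 CPM in MPS 10, MPS 11 and MPS 14, against 104820 to 134840 CPM in NC, so the muscle label held for 6 libraries and poorly for MPS 14. Counts of genes are therefore given with every library and again without MPS 14.

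With all libraries no gene passed edgeR's quasi-likelihood test at an adjusted p under 0.05, which is 0.0% of 13535 genes. The smallest adjusted p was 0.211. At an unadjusted p under 0.05 there were 1453 genes (10.7%), and DESeq2 called 205 (1.51%). Without MPS 14 edgeR called 362 of 13719 genes (2.64%), of which 307 (2.24%) were higher in MPS and 55 (0.401%) were lower. Every call named below is from the fit without MPS 14, and none of these genes passed with all libraries. The median log2 fold change of all genes was 0.13 with every library and -0.02 without MPS 14.

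The count of 362 depended on single libraries and on the scaling. It became 2 without MPS 10 and 7 without MPS 11, where the lone MPS library is assumed to vary like the other groups. Without NC 4, NC 5, NC 6 or NC 7 it became 97, 42, 49 or 32. Without TZG 26 or TZG 43 it became 601 or 1067, and a fit of MPS and NC alone called 1278. Scaling by library totals in place of TMM factors called 64 genes, 35 higher and 29 lower, so that 54.7% of the calls were higher against 84.8% with TMM factors; 63 of the 64 were among the 362. That scaling moved the median log2 fold change of all genes to -0.30, so each fold change below would be lower by about that shift. None of the 113 genes followed through the alternatives to that fit changed direction under any of them.

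**Figure D1:**
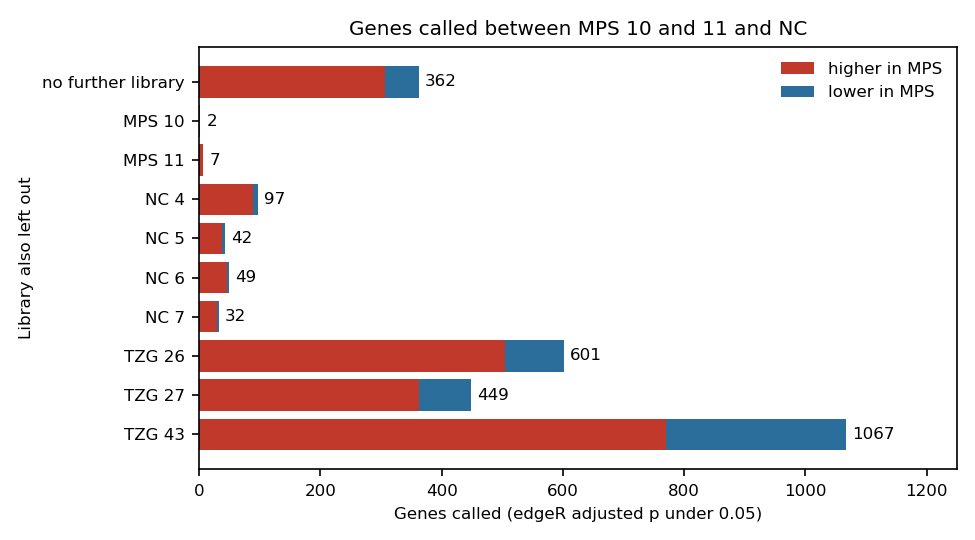
Genes called between MPS 10 and MPS 11 and the 4 NC libraries, with no further library left out (362) and with each other library left out as well, split into higher in MPS (red) and lower in MPS (blue). The count falls to 2 and 7 without MPS 10 and MPS 11 and ranges from 32 to 97 without 1 NC library.

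MPS 10 and MPS 11 were as alike as 2 NC libraries. Their median absolute difference was 0.31 on the log2 CPM scale over 13535 genes, within the range of 0.24 to 0.36 of the 6 NC pairs. The 8 pairs of MPS 10 or MPS 11 with an NC library differed by 0.39 to 0.56, more than any NC pair. MPS 14 differed from MPS 10 and MPS 11 by 1.19 to 1.25 and from the NC libraries by 1.02 to 1.09, so it was farther from its own group than from NC. These distances describe libraries and carry no test.

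**Figure D2:**
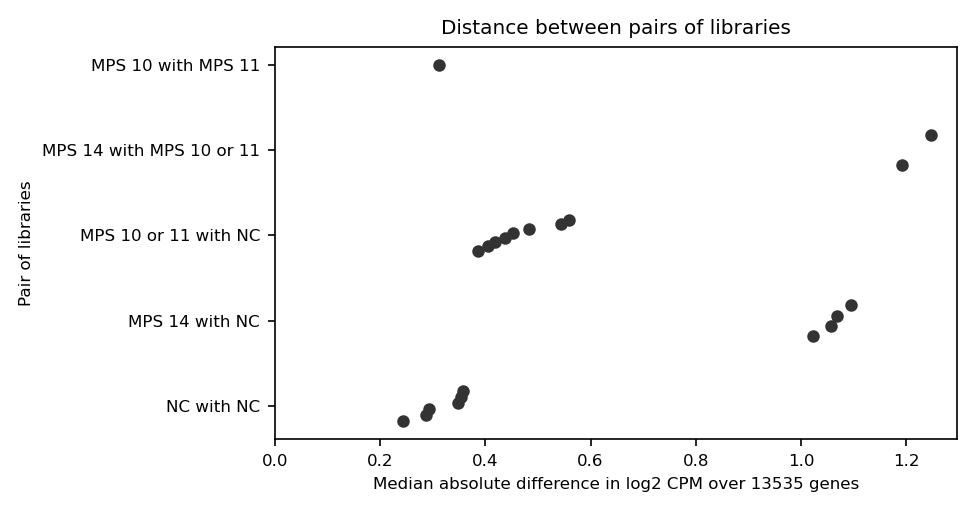
Median absolute difference in log2 CPM over 13535 genes for each pair of libraries (1 point per pair). The MPS 10 and MPS 11 pair, at 0.31, lies among the NC pairs, while the pairs with MPS 14 lie between 1.02 and 1.25.

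Gene by gene, MPS 10 and MPS 11 lay on the same side of the NC range for 5300 of 13719 genes (38.6%), both above it for 2755 (20.1%) and both below it for 2545 (18.6%). They lay on opposite sides of it for 579 genes (4.22%). With all libraries fitted, MPS 14 joined them above NC for 713 of 13535 genes (5.27%) and below it for 774 (5.72%). It lay on the other side of NC for 1510 genes that were above NC in both and for 1415 genes that were below NC in both. Of the 306 genes called higher without MPS 14 that were also tested with it, MPS 14 was above the NC range for 57, inside it for 42 and below it for 207. Of the 55 called lower, it was below the range for 21, inside it for 12 and above it for 22.

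Where MPS 10 and MPS 11 differed most, the genes had varied roles. Among genes averaging at least 10 normalised CPM, Elk4, an ETS transcription factor, had 44.6, 1.54 and 243 CPM in MPS 10, MPS 11 and MPS 14, against 42.4, 38.2, 3.95 and 3.87 CPM in NC 4, 5, 6 and 7. Both groups thus held libraries with a high level and libraries with a low one. Fam210a had 80.5, 5.996 and 75.1 CPM in the MPS libraries, against 86.1, 66.4, 12.2 and 76.1 CPM in NC. Pdk4, the kinase that shuts pyruvate out of mitochondria, had 32.7, 4.57 and 1.69 CPM in the MPS libraries, against 2.93 to 21.9 CPM in NC. RT1-CE1 and RT1-T24-4, class I histocompatibility genes with close relatives that may share reads, were also far higher in MPS 10 than in MPS 11, as were Rassf8, Col7a1 and Mical2.

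The immediate early gene Fos went the other way, with 4.97, 52.8 and 7.33 CPM in the MPS libraries, against 12.8 to 58.0 CPM in NC. Irx5, a homeobox gene of patterning, had 1.88, 21.3 and 1.98 CPM in the MPS libraries, against 1.77 to 5.57 CPM in NC. The sarcomere gene Myom3 had 5.33, 38.5 and 2.64 CPM in the MPS libraries, against 0 to 0.872 CPM in NC. Padi2, Sbk2, Neu2 and Galns were also far lower in MPS 10 than in MPS 11. The log2 differences of these 15 genes, MPS 10 minus MPS 11, ran from 2.69 to 4.63 and from -3.53 to -2.42.

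**Figure D3:**
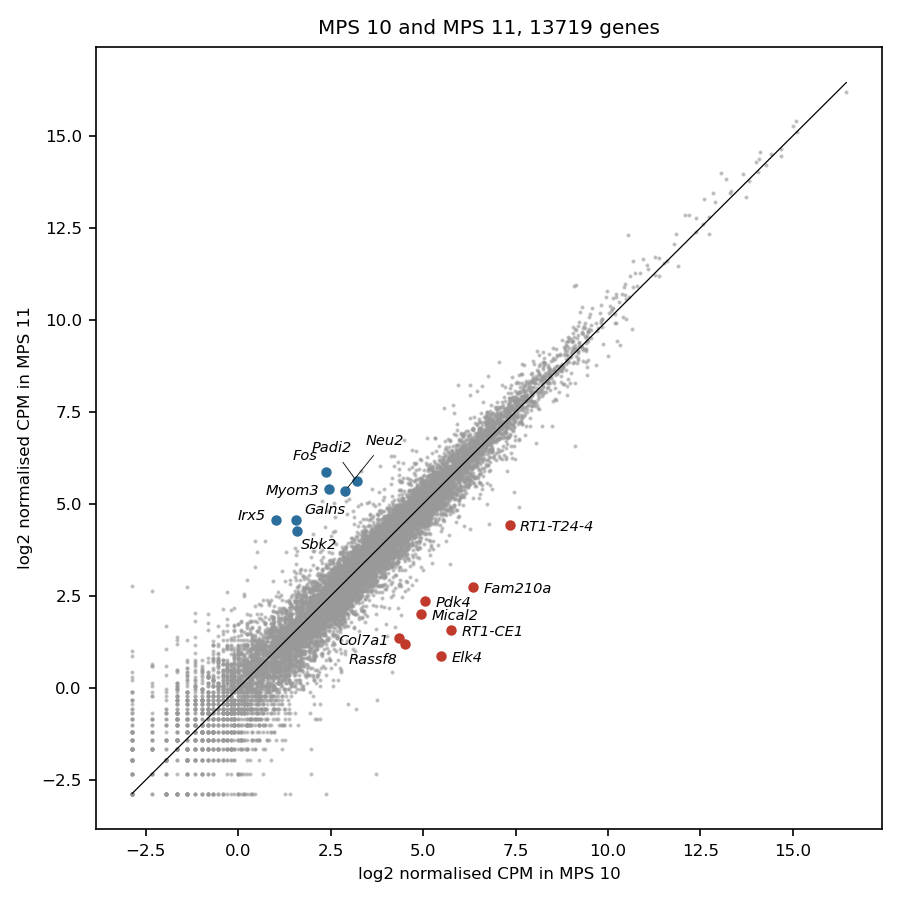
Log2 normalised CPM of 13719 genes in MPS 10 (horizontal axis) and MPS 11 (vertical axis), with the line of equal levels. The 15 genes given in the text, among those with the largest differences and averaging at least 10 normalised CPM, are named, red where higher in MPS 10 and blue where higher in MPS 11.

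Levels below are CPM of the library total, and fold changes are those of the fit without MPS 14 unless stated, as log2 of MPS over NC with the standard error. TMM factors were 0.991 and 0.914 in MPS 10 and MPS 11, against 1.06 to 1.29 in NC, so a ratio of the CPM values is smaller than the fitted one for genes higher in MPS.

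Some nuclear genes of the respiratory chain and ATP synthase rose in MPS 10 and MPS 11, and the levels of the group were low in MPS 14. Of 77 subunit genes tested, 16 (20.8%) were called higher and none lower, beside 2.24% higher over all genes, and 76 were higher with a median log2 fold change of 0.82. By complex, 8 of 35 genes of complex I, 2 of 14 of complexes II and III, 5 of 13 of complex IV and 1 of 15 of ATP synthase were called. Both MPS 10 and MPS 11 were above every NC library for 67 of the 77, beside 20.1% of all genes. The 13 genes of the mitochondrial genome had a median of -0.05 and none was called. With all libraries the medians of the 4 nuclear lists, in the same order, were 0.35, 0.28, 0.27 and 0.45. MPS 14 was the lowest library for each, and no subunit gene had all 3 MPS libraries above NC on the TMM scale.

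Promoters of 2 complex IV genes that rose, Cox5b and Cox8a, are shown because ETS factors are known activators of respiratory genes and both hold the ETS motif; they were picked with the matches known, and the windows of Uqcr10, Ndufv1 and Coq7 hold none. The 250 bases before the start are given for Cox5b (chr9:46417587-46417836, plus strand) and Cox8a (chr1:213833624-213833873, minus strand), read 5′ to 3′ from RefSeq on GRCr8, with the ETS motif CCGGAAG on either strand in capitals. The motif stood in 18 of 68 respiratory promoters (26.5%), in 35 of 199 promoters of genes called higher (17.6%) and in 1439 of 9714 promoters of all genes tested (14.8%). The motifs AAGGTCA and GCGCANGCGC stood in 10.3% and 16.2% of respiratory promoters, beside 2.37% and 8.93% of all. A match of letters is a description and not a site of binding.
Cox5b: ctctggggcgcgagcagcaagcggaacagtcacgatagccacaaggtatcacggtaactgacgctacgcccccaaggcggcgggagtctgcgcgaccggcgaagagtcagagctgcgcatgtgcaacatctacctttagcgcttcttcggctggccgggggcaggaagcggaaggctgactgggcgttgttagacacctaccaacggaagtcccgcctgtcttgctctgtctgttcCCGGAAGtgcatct
Cox8a: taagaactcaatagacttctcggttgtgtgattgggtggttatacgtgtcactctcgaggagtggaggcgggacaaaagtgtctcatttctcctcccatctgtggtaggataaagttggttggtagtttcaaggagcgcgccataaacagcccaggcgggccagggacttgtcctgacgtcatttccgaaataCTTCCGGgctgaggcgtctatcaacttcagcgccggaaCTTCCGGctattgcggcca

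Uqcr11, a small subunit of complex III, had 564, 551 and 19.9 CPM in MPS 10, MPS 11 and MPS 14, against 205, 161, 166 and 107 CPM in NC 4, 5, 6 and 7. MPS 10 and MPS 11 lay above NC and MPS 14 below it. Its log2 fold change was 2.07 ± 0.35 (edgeR adjusted p = 0.0160), and 1.49 ± 0.91 with all libraries (edgeR adjusted p = 0.566). Cox5b, a complex IV subunit, had 701, 748 and 81.0 CPM in the MPS libraries, against 352, 291, 250 and 240 CPM in NC. It rose by 1.62 ± 0.29 (edgeR adjusted p = 0.0223). Cox8a, the smallest subunit of complex IV, had 85.2, 89.3 and 91.2 CPM in MPS, against 52.9, 55.8, 52.9 and 42.4 CPM in NC, with MPS 14 as high as the other 2 in CPM but overlapping NC on the TMM scale. It rose by 1.04 ± 0.20 (edgeR adjusted p = 0.0246). Uqcr10 of complex III, Ndufa13 and Ndufv1 of complex I and Atp5me of ATP synthase rose by 1.68, 1.44, 1.16 and 1.85, with edgeR adjusted p-values of 0.0131, 0.0257, 0.0317 and 0.0237. Cox7a1, the muscle form of another subunit, had 79 and 80 counts in MPS 10 and MPS 11, against 7, 0, 0 and 0 counts in NC, so the size of its rise rests on few NC counts.

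Some genes that build and serve the chain rose as well. Coq7 (ENSRNOG00000017012, chromosome 1, 188174874 to 188190860 on a build not given in the sources used here), a hydroxylase of coenzyme Q synthesis, had 43.2, 41.8 and 5.57 CPM in MPS, against 15.7, 12.7, 18.8 and 10.04 CPM in NC, and rose by 1.85 ± 0.24 (edgeR adjusted p = 0.0113). Higd1a, which acts on complex IV under low oxygen, had 104, 85.8 and 28.7 CPM in MPS, against 34.7, 35.7, 30.6 and 38.1 CPM in NC, and rose by 1.70 ± 0.20 (edgeR adjusted p = 0.00786). Both stood with MPS 10 and MPS 11 clear of NC and MPS 14 below NC. Mitochondrial ribosome genes had 7 of 49 called higher (14.3%; median 0.51), with Mrpl14 at 1.42 and Mrpl20 at 1.26. Protein import had 2 of 22, the motor anchor Timm44 and the pore subunit Tomm7. The assembly and coenzyme Q list had 3 of 30, with Coq8a and Uqcc2 beside Coq7.

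Esrra, the nuclear receptor ERR alpha that switches on oxidative genes, had 63.1, 68.6 and 19.0 CPM in MPS, against 30.0, 16.2, 33.7 and 15.1 CPM in NC. It rose by 1.77 ± 0.31 (edgeR adjusted p = 0.0192), and Fis1, a fission factor, by 0.91 (0.0481); they were 2 of 19 biogenesis and dynamics genes. Etfb, which passes electrons from fatty acid oxidation to the chain, rose by 1.78 ± 0.29 (edgeR adjusted p = 0.0145) and Acaa2, a thiolase, by 1.04; they were 2 of 24 fatty acid genes, whose median was 0.30. Slc25a4, the ADP and ATP carrier, rose by 1.21 ± 0.23 (edgeR adjusted p = 0.0263). Of the citric acid cycle and of glycolysis 1 gene each was called, Dlst of 24 (4.17%) and Gapdh of 22 (4.55%), beside 2.24% over all genes, and by library totals neither was.

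Genes of slow fibres were high beside this group. The 12 tested were all above the NC range in MPS 10 and MPS 11, beside 20.1% of all genes, and 2 were called, with 0 by library totals and 0 whenever a further MPS or NC library was left out. They had summed levels of 1789.6, 3648.5 and 923 CPM in MPS 10, MPS 11 and MPS 14, against 149.7 to 240.4 CPM in NC. Most of the sum in MPS 14 came from Tpm3 and Atp2a2, at 547 and 237 CPM there. Myh7, the slow myosin, had 603, 1080 and 41.0 CPM in MPS, against 0.147 to 3.05 CPM in NC. The median log2 fold change of the list was 6.02. The part of slow-fibre genes in the respiratory result was not tested. Scaling and gene length bore on it too: by library totals none of the 77 subunit genes was called (median 0.55), and with gene length offsets 6 were (median 0.62). Without MPS 10, MPS 11, NC 5, NC 6 or NC 7 none was called, without NC 4 there were 5, and a fit of MPS and NC alone called 48.

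**Figure D4:**
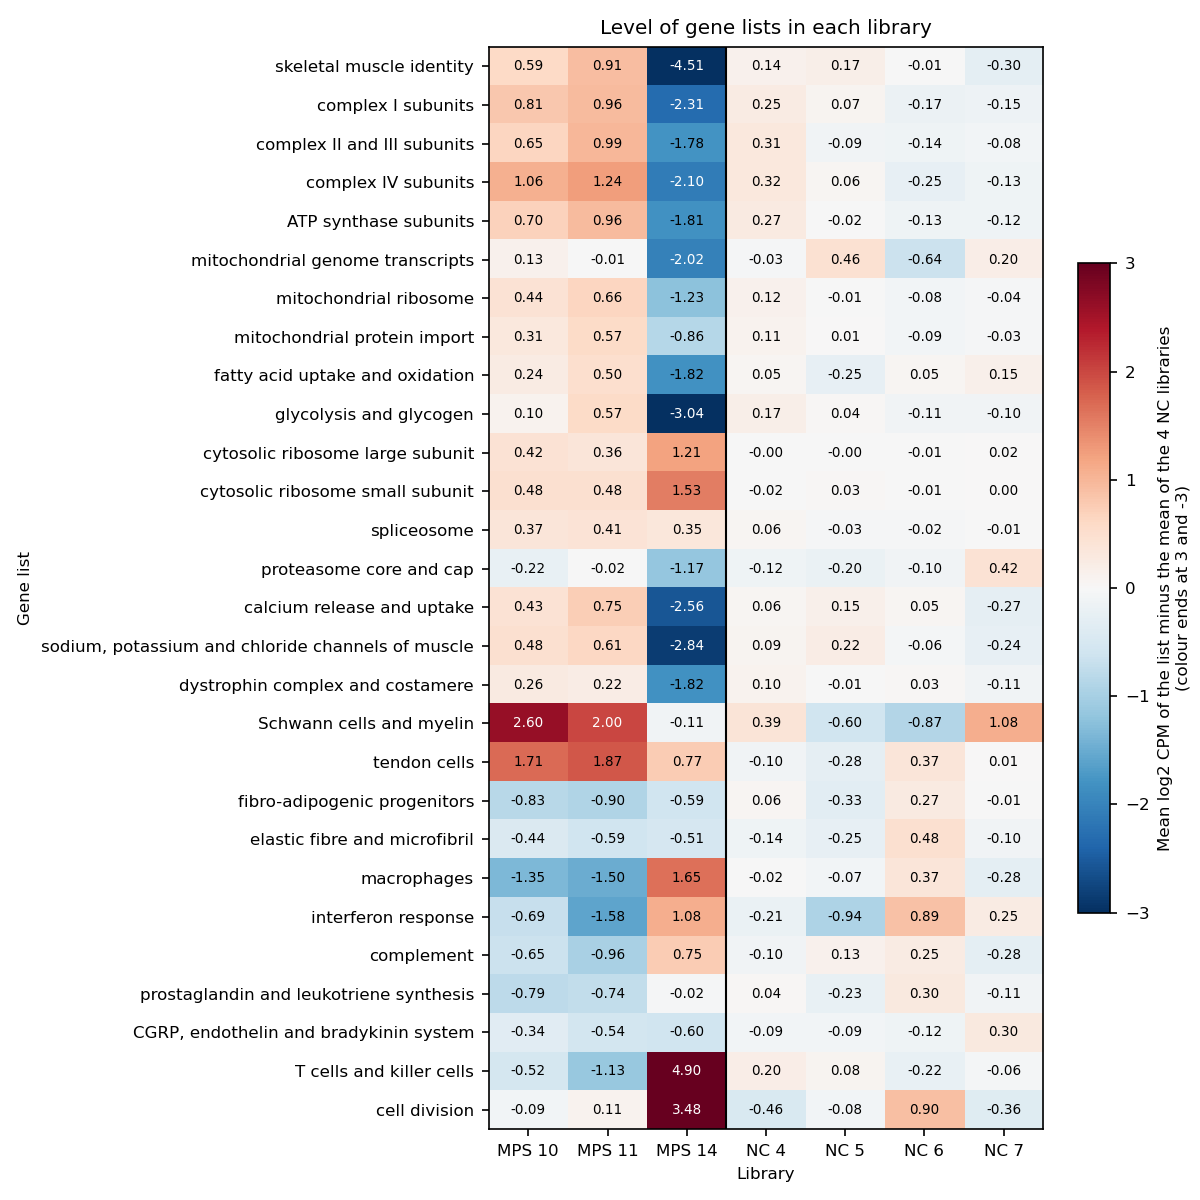
Mean log2 CPM (TMM scaled, all libraries) of the tested genes of 28 lists in each library, minus the mean of the 4 NC libraries, with the value in each cell. MPS 10 and MPS 11 share their sign for every list shown but the mitochondrial genome and cell division, and MPS 14 has the opposite sign for the respiratory, mitochondrial and muscle lists.

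Genes of the ribosome and of splicing rose in small numbers, and here MPS 14 stood on the same side as the other 2 MPS libraries. Of 72 cytosolic ribosomal protein genes tested, 7 (9.72%) were called higher without MPS 14 and none lower, beside 2.24% higher over all genes, with a median of 0.42. By library totals 3 were called, and with gene length offsets 6 were (median 0.16). Without MPS 10 or MPS 11 there were 0 or 1 calls, and without any 1 NC library there were 3. With all libraries the large and small subunit lists had medians of 0.78 and 0.99, and 25 of 43 and 19 of 29 members had all 3 MPS libraries above NC, beside 5.27% over all genes. In MPS 14 these lists summed to 47537 and 29670 CPM, against 10838 to 12671 and 5586 to 6615 CPM in NC, and lymphoid genes were high in the same library. In MPS 10 and MPS 11 the large subunit list summed to 13053 and 11646 CPM and the small one to 7058 and 6479.8 CPM, and MPS 11 lay inside the NC range of both sums.

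Rpl13 had 71.9, 48.0 and 43.8 CPM in MPS, against 16.6, 13.4, 18.5 and 9.96 CPM in NC, and rose by 2.31 ± 0.24 (edgeR adjusted p = 0.00405). With all libraries its log2 fold change was 1.97 ± 0.36 (edgeR adjusted p = 0.304). Rpl35a had 109, 89.99 and 119 CPM in MPS, against 44.0, 35.4, 49.2 and 36.4 CPM in NC, and rose by 1.54 ± 0.21 (edgeR adjusted p = 0.0113). In both genes no MPS library overlapped NC. Of the same list Rps28, Rpl12, Rps21 and Rpl7a rose by 1.92, 1.51, 1.63 and 1.10, and Rps19l2, which no list holds, rose by 1.90. Ribosomal protein genes have near-identical copies elsewhere in the genome, and how shared reads were counted is not given in the sources used here, so the level of any 1 of them is uncertain.

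The spliceosome list had 5 of 36 genes called higher (13.9%, beside 2.24% over all genes), with a median of 0.36. Snrpf, a protein of the Sm ring that clasps small nuclear RNAs, had 51.3, 48.9 and 74.8 CPM in MPS, against 21.5, 23.8, 23.2 and 21.3 CPM in NC. All 3 MPS libraries were clear of a narrow NC range. It rose by 1.43 ± 0.24 (edgeR adjusted p = 0.0152) and had 1.31 ± 0.26 with all libraries (edgeR adjusted p = 0.304). Lsm6, Snrnp70 and Snrpd2 rose by 1.48, 1.34 and 1.05. The list lost all 5 calls under scaling by library totals and kept a count of 3 with gene length offsets. The proteasome list, 31 genes, had none called and a median of -0.11.

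Genes of the fibre membrane and of excitation rose in small numbers. The channel list had 3 of 28 called higher (10.7%, beside 2.24% over all genes): Kcnj11, the pore of the ATP-sensitive potassium channel, Fxyd1, a regulator of the sodium pump, and Kcnj12, an inward rectifier. Kcnj11 had 152, 140 and 3.74 CPM in MPS, against 71.6, 84.0, 93.7 and 72.8 CPM in NC, and rose by 1.13 ± 0.18 (edgeR adjusted p = 0.0141). MPS 10 and MPS 11 were above NC while MPS 14 held almost none. Fxyd1 rose by 1.31 ± 0.22 (edgeR adjusted p = 0.0158). The dystrophin complex and costamere list had 3 of 26 (11.5%), among them Cav3 and Flnc, which rose by 1.13 and 1.06. Actn2, the alpha-actinin of the Z-disc, had 514, 626 and 28.8 CPM in MPS, against 175, 94.6, 189 and 83.5 CPM in NC, and rose by 2.37 ± 0.33 (edgeR adjusted p = 0.0113). Sln, the inhibitor of the calcium pump SERCA, rose by 3.34 ± 0.47 (edgeR adjusted p = 0.0113), and Camk2b, a calcium-dependent kinase, by 1.73; the calcium list had 4 of 26 called (15.4%). By library totals the channel, costamere and calcium lists had 0, 0 and 1 calls, and each had 0 or 1 when a further MPS or NC library was left out.

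Transporters of small solutes had 4 of 23 called higher (17.4%, beside 2.24% over all genes), with 0 by library totals and 0 or 1 when a further MPS or NC library was left out. Slc16a3, the lactate exporter MCT4, had 342, 338 and 6.08 CPM in MPS, against 207, 118, 143 and 90.4 CPM in NC, and rose by 1.56 ± 0.30 (edgeR adjusted p = 0.0250). Slc38a3, a glutamine transporter, had 69.3, 54.2 and 2.49 CPM in MPS, against 18.4, 19.3, 20.8 and 13.01 CPM in NC, and rose by 2.06 ± 0.36 (edgeR adjusted p = 0.0202). Slc2a4, the insulin-responsive glucose transporter GLUT4, rose by 1.05 (edgeR adjusted p = 0.0489). Slc16a6, a relative of the lactate carriers, had 4.73, 5.67 and 25.1 CPM in MPS, against 1.69, 2.38, 1.27 and 1.56 CPM in NC, with all 3 MPS libraries above NC; it rose by 1.85 ± 0.38 (edgeR adjusted p = 0.0317).

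Myelin genes were higher in MPS 10 and MPS 11. The Schwann list had 3 of 15 genes called, beside 2.24% over all genes, with 2 by library totals and 0 or 1 when a further MPS or NC library was left out; all 15 were higher, and the median was 1.63. Prx, periaxin, had 40.9, 26.8 and 3.299 CPM in MPS, against 7.95, 5.07, 6.41 and 10.7 CPM in NC, and rose by 2.43 ± 0.30 (edgeR adjusted p = 0.00984). Pmp2, a lipid carrier of myelin, had 95 and 82 counts in MPS 10 and MPS 11, against 2, 0, 0 and 0 counts in NC. The summed level of the list was 840, 552 and 319 CPM in MPS and 93.8 to 288 CPM in NC, and 1, 4, 4 and 1 members were at 0 in NC 4, 5, 6 and 7, with 5 at 0 in MPS 14. The part of nerve content in these results was not tested.

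Tendon genes had a high median, 1.41 over 10 genes, and no call. Of the 10, 7 were higher and 3 lower, and 6 had both MPS 10 and MPS 11 above NC, beside 20.1% of all genes. Col1a1 lay inside the NC range, with 168, 147 and 266 CPM in MPS, against 118, 250, 541 and 225 CPM in NC. Thbs4, a matrix protein of tendon and of injured muscle, had 62.4, 30.8 and 38.0 CPM in MPS, against 1.33, 0.634, 4.54 and 4.98 CPM in NC, with a log2 fold change of 4.30 (edgeR adjusted p = 0.249). Scx, the tendon transcription factor, had 18.6, 19.0 and 0.953 CPM in MPS, against 6.41, 3.01, 7.52 and 5.50 CPM in NC (edgeR adjusted p = 0.0910). Tnmd, tenomodulin, had 15 and 43 counts in MPS 10 and MPS 11 and 0 in all NC libraries, so that with 3 counts over the NC group as the floor it was at least 29.6-fold higher. The median of the list stayed at 1.41 with Tnmd at that bound. Summed levels overlapped, at 312, 307 and 464 CPM in MPS, against 266 to 636 CPM in NC.

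In all 3 MPS libraries Ramp1 was high. It encodes the partner protein that turns the receptor Calcrl into the receptor for CGRP, a peptide of sensory nerve endings. Ramp1 (ENSRNOG00000019926, chromosome 9, 98313632 to 98364205) had 36.1, 56.7 and 52.3 CPM in MPS, against 8.98, 8.402, 11.02 and 6.10 CPM in NC, with no overlap. Its log2 fold change was 2.72 ± 0.40 without MPS 14 (edgeR adjusted p = 0.0131) and 2.49 ± 0.42 with all libraries (edgeR adjusted p = 0.304). Calcrl itself had 23.8, 13.4 and 229 CPM in MPS, against 55.2, 61.1, 53.0 and 77.8 CPM in NC. It fell by 1.49 ± 0.30 without MPS 14 (edgeR adjusted p = 0.0317), while MPS 14 lay above every NC library. Agtr1a, the angiotensin II receptor, fell by 1.45 ± 0.34 (edgeR adjusted p = 0.0476), and Ednra, the endothelin A receptor, stood at -1.29 ± 0.33 (edgeR adjusted p = 0.0608). Of the 15 genes of the CGRP, endothelin and bradykinin list, 1 was called higher (6.67%) and 2 lower (13.3%). Over all genes 2.24% were called higher and 0.401% lower.

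Ramp1 was 1 of 20 genes of the all-library fit taken for the smallest p with no overlap between the 3 MPS libraries and NC. None of the 20 passed there, each with an edgeR adjusted p of 0.304, and all 20 were called without MPS 14 and by DESeq2 with all libraries. Those 2 fits use the counts that the 20 were picked from, so their calls are no separate support. Pmepa1, a target and inhibitor of TGF-beta signalling, had 33.2, 14.96 and 16.4 CPM in MPS, against 2.80, 2.54, 5.66 and 3.79 CPM in NC, and rose by 2.98 ± 0.42 without MPS 14 (edgeR adjusted p = 0.0114). It was the 1 called of 44 genes of TGF-beta, activin and BMP signalling (2.27%, beside 2.24% higher over all genes). Of the 44, 19 were higher and 25 lower, with a median of -0.10. Tceal7, of the transcription elongation factor A-like family on chromosome X, had 20.8, 22.4 and 23.2 CPM in MPS, against 5.82, 4.20, 3.05 and 3.57 CPM in NC, and rose by 2.63 ± 0.46 (edgeR adjusted p = 0.0241). Tceal5, of the same family, had 6.97, 11.8 and 0.293 CPM in MPS, against 0.298 to 0.663 CPM in NC, and also rose. Flvcr1, a haem and choline transporter, had 6.49, 4.90 and 8.80 CPM in MPS, against 1.33, 2.06, 1.94 and 2.01 CPM in NC, and rose by 1.89 ± 0.33 (edgeR adjusted p = 0.0190).

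Several genes of the matrix and of the cell surface were low in all 3 MPS libraries. Hs3st1 (ENSRNOG00000010598, chromosome 14, 75852060 to 75882693), which adds the rare sulphate group of heparan sulphate that binds antithrombin, had 9.94, 5.56 and 20.5 CPM in MPS, against 52.0, 26.8, 44.2 and 40.9 CPM in NC. It fell by 2.14 ± 0.31 without MPS 14 (edgeR adjusted p = 0.0120) and stood at -1.97 ± 0.31 with all libraries (edgeR adjusted p = 0.304). Efemp1, fibulin 3 of elastic fibres, had 7.27, 4.90 and 20.5 CPM in MPS, against 35.3, 23.0, 60.2 and 44.4 CPM in NC, and fell by 2.45 ± 0.42 (edgeR adjusted p = 0.0192). Plau, the urokinase that makes plasmin, had 11.7, 13.9 and 15.2 CPM in MPS, against 39.8, 33.5, 47.2 and 45.3 CPM in NC, and fell by 1.41 ± 0.26 (edgeR adjusted p = 0.0238). In each the MPS libraries lay below NC without overlap, as for 5.72% of all genes, and the genes were picked for this. Each was the 1 called lower of its list, beside 0.401% over all genes. The lists were heparan sulphate (22 tested, 4.55%), elastic fibre (19, 5.26%) and plasmin and coagulation (18, 5.56%). The heparan sulphate list also had 1 gene called higher. Matrix proteases and inhibitors had 1 of 20 called higher and 0 lower.

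Spry2, a brake on growth factor receptors, had 13.3, 11.9 and 18.4 CPM in MPS, against 28.1, 30.4, 36.3 and 30.5 CPM in NC, and fell by 1.03 ± 0.18 (edgeR adjusted p = 0.0197). Slc12a2, the sodium, potassium and chloride cotransporter NKCC1, had 66.0, 53.4 and 82.5 CPM in MPS, against 158, 157, 191 and 244 CPM in NC, and fell by 1.38 ± 0.27 (edgeR adjusted p = 0.0267). The collagen receptor Itga11, the peptide transporter Slc15a2 and the lipid flippase Atp8a1 fell by 1.81, 1.88 and 1.12. Doc2b, a calcium sensor of vesicle fusion, had 5 and 3 counts in MPS 10 and MPS 11, against 34, 18, 28 and 26 counts in NC.

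**Figure D5:**
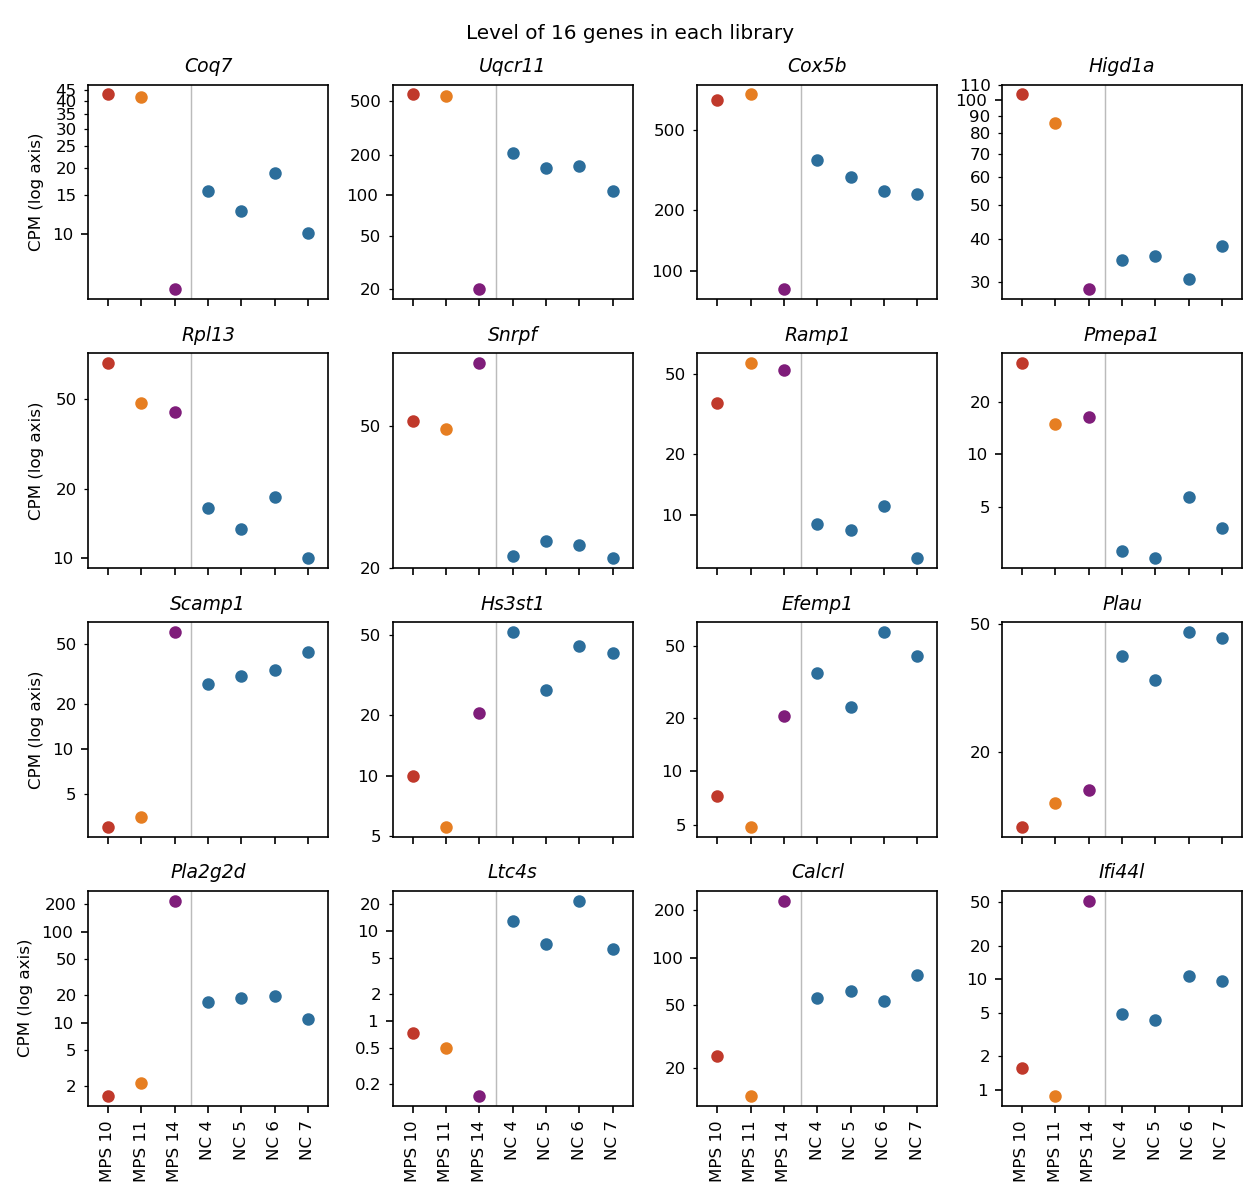
CPM (log axis) of 16 genes in each of the 7 libraries, MPS on the left (red MPS 10, orange MPS 11, purple MPS 14) and NC on the right in blue. Rpl13, Snrpf, Ramp1 and Pmepa1 are above NC and Hs3st1, Efemp1, Plau and Ltc4s below NC in all 3 MPS libraries, while MPS 14 lies on the other side of NC for the remaining 8.

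The gene with the smallest p without MPS 14 was Scamp1 (ENSRNOG00000061582, chromosome 2, 23857995 to 23941084), a carrier protein of secretory and recycling vesicles. It had 3.03, 3.52 and 60.0 CPM in MPS, against 26.9, 30.8, 33.5 and 44.3 CPM in NC, so that MPS 10 and MPS 11 were far below NC and MPS 14 above it. Its log2 fold change was -3.09 ± 0.29 (edgeR adjusted p = 0.00193), and -1.17 ± 0.71 with all libraries (edgeR adjusted p = 0.566). Scamp1 passed in 5 of the 6 fits that left out a further MPS or NC library, as did Rpl13, Tbx15, Barx2, Prx and Sln, and it passed under scaling by library totals, as these did. The vesicle list had Scamp1 and Doc2b called lower among 31 genes (6.45%, beside 0.401% lower over all genes), with a median of -0.19.

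Some genes of lipid mediator synthesis fell in MPS 10 and MPS 11. Of 20 genes of prostaglandin and leukotriene synthesis, 3 were called lower and none higher, beside 0.401% lower over all genes, with a median of -0.89. In this list 15 genes were lower and 5 higher. Both MPS 10 and MPS 11 lay below NC for 10 of the 20 and above it for 4, beside 18.6% and 20.1% of all genes. Ltc4s, which makes leukotriene C4, had 0.727, 0.495 and 0.147 CPM in MPS, against 12.96, 7.13, 21.6 and 6.24 CPM in NC, and fell by 3.97 ± 0.78 (edgeR adjusted p = 0.0317). All 3 MPS libraries were below NC. Alox5ap, the helper of 5-lipoxygenase, had 1.58, 1.16 and 9.09 CPM in MPS, against 8.39, 5.31, 13.03 and 4.98 CPM in NC, and fell by 2.24 ± 0.52 (edgeR adjusted p = 0.0476). Pla2g2d, a secreted phospholipase A2, had 1.58, 2.20 and 219 CPM in MPS, against 16.9, 18.5, 19.8 and 11.001 CPM in NC, and fell by 2.84 ± 0.54 (edgeR adjusted p = 0.0263), with MPS 14 far above NC. Of 19 purine genes, Entpd1, which breaks down extracellular ATP, and P2ry6, a receptor for UDP, were called lower, at -1.26 ± 0.26 and -3.04 ± 0.68 (edgeR adjusted p = 0.0317 and 0.0398).

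Of the 27 genes of the interferon list, 26 were lower, and the median was -1.27. Both MPS 10 and MPS 11 lay below NC for 9 of them, beside 18.6% of all genes. Called lower were 3 of the 27 (11.1%, beside 0.401% over all genes). Promoters of the 3 are shown because they carry the binding letters of interferon-stimulated genes: TTTCNNTTTC on either strand, in capitals, in the 250 bases before the start on GRCr8 from RefSeq. Irgm lies at chr10:33742579-33742828 (minus strand), Ifi44 at chr2:243303841-243304090 (minus strand) and Ifi44l at chr2:243328473-243328722 (plus strand). The motif stood in 14 of 20 promoters of the list (70.0%), in 4 of 37 of genes called lower (10.8%) and in 247 of 9714 of all genes tested (2.54%). The 3 promoters shown are among those 4, so the share for genes called lower is not separate from the list. The last motif searched, CTANNNNTAG, stood in 2.71% of all promoters, 2.94% of respiratory ones and 0.0% of those of the interferon list.
Irgm: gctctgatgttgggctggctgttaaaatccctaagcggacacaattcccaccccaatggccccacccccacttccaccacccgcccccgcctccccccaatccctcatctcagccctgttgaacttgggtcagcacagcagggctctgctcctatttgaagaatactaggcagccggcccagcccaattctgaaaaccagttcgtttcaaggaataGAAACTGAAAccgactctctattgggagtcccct
Ifi44: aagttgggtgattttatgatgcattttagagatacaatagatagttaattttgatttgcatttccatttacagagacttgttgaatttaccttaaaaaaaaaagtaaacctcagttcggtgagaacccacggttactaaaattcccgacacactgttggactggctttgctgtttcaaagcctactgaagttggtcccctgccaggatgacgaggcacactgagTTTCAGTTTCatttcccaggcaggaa
Ifi44l: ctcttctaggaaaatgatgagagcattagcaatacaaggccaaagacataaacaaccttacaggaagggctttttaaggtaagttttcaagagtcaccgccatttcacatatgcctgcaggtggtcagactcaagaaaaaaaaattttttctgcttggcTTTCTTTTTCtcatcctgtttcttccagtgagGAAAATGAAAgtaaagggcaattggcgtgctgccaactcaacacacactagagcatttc

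Ifi44l, an interferon-induced gene of cell defence, had 1.58, 0.880 and 51.8 CPM in MPS, against 4.86, 4.28, 10.7 and 9.74 CPM in NC, and fell by 2.30 ± 0.46 (edgeR adjusted p = 0.0307). Irgm, an interferon-induced GTPase, had 9.76, 6.71 and 48.8 CPM in MPS, against 22.1, 17.2, 35.8 and 34.6 CPM in NC, and fell by 1.45 ± 0.30 (edgeR adjusted p = 0.0317). Ifi44 had 13.03, 6.601 and 83.5 CPM in MPS, against 22.9, 20.8, 44.8 and 40.7 CPM in NC, and fell by 1.44 ± 0.34 (edgeR adjusted p = 0.0486). In all 3 genes MPS 10 and MPS 11 were below NC and MPS 14 above it. Summed levels of the list overlapped, at 405, 228 and 2169.9 CPM in MPS, against 329 to 1219 CPM in NC, and with all libraries its median was 0.04. The calls of the interferon and lipid mediator lists were lost whenever a further MPS or NC library was left out.

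Macrophage genes were low beside these lists. All 19 tested were lower, 15 had both MPS 10 and MPS 11 below NC, beside 18.6% of all genes, and the median was -1.67, though none was called. Summed levels were 162, 133 and 7034.5 CPM in MPS 10, MPS 11 and MPS 14, against 363 to 776 CPM in NC. Fcgr1a, an antibody receptor, had 1.09, 1.10 and 19.5 CPM in MPS, against 8.03, 4.36, 8.71 and 7.80 CPM in NC (log2 fold change -2.43; edgeR adjusted p = 0.0738). Lyz2, lysozyme, had 37.8, 30.8 and 5322 CPM in MPS, against 153, 74.7, 200 and 109 CPM in NC (edgeR adjusted p = 0.0776). C5ar1, the receptor for complement C5a, had 1.21, 1.43 and 34.1 CPM in MPS, against 6.41, 6.02, 11.1 and 5.80 CPM in NC, and was called lower, at -2.16 ± 0.39 (edgeR adjusted p = 0.0202). Of 20 macrophage genes measured, Cx3cr1, too low to be tested, was at 0 in MPS 11 and NC 7, and no other was at 0 in any library. The part of macrophage content in the interferon and lipid mediator results was not tested.

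Markers of fibro-adipogenic progenitors had 2 of 16 called lower (12.5%, beside 0.401% lower over all genes), with a median of -1.17. Of the 16, 14 were lower and 2 higher. Pdgfra, their surface receptor, had 6.79, 10.1 and 156 CPM in MPS, against 23.2, 21.9, 27.5 and 30.5 CPM in NC, and fell by 1.32 ± 0.27 (edgeR adjusted p = 0.0317). Dcn, the collagen-binding proteoglycan decorin, had 191, 174 and 408 CPM in MPS, against 536, 463, 836 and 815 CPM in NC, and fell by 1.57 ± 0.37 (edgeR adjusted p = 0.0476). Summed levels were 1194, 1184 and 2808 CPM in MPS, against 2304 to 3708 CPM in NC. Both calls were lost with gene length offsets and whenever a further MPS or NC library was left out. PCOLCE2, an enhancer of procollagen processing, fell by 1.90 ± 0.36 (edgeR adjusted p = 0.0241), and Nid2, a basement membrane link, by 1.03 ± 0.22 (edgeR adjusted p = 0.0345). Among 14 fibrillar and associated collagens none was called (median -0.53).

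Genes of body position were gathered by name after their values had been seen, and few were called. Hoxc6 had 2.61, 2.42 and 0.953 CPM in MPS, against 13.7, 14.1, 17.4 and 13.5 CPM in NC, and fell by 2.26 ± 0.38 (edgeR adjusted p = 0.0158). Hoxd4 had 28.9, 26.7 and 0.880 CPM in MPS, against 12.1, 10.8, 14.5 and 8.25 CPM in NC, with a log2 fold change of 1.56 (edgeR adjusted p = 0.173). Hoxc6 was the 1 called of 22 Hox genes tested (4.55%, beside 0.401% lower over all genes), and the median was -0.13. Of 17 T-box and related homeobox genes 2 were called higher (beside 2.24% over all genes), with a median of 0.68. Tbx15, a T-box factor of glycolytic fibres in mice, had 30.4, 18.3 and 3.52 CPM in MPS, against 4.57, 3.57, 6.33 and 4.91 CPM in NC, and rose by 2.60 ± 0.30 (edgeR adjusted p = 0.00786). Pitx3, a homeobox gene of muscle, had 7.27, 9.24 and 0 CPM in MPS, against 2.43, 3.33, 3.43 and 3.49 CPM in NC, and rose by 1.66 ± 0.33 (edgeR adjusted p = 0.0291). Barx2, a homeobox gene of satellite cells, had 8.43, 25.6 and 0 CPM in MPS, against 2.80, 1.98, 2.53 and 2.97 CPM in NC, and rose by 3.02 ± 0.40 (edgeR adjusted p = 0.0113). It stood in another list, muscle regeneration and satellite cells, as the 1 called of 22 genes (4.55%, beside 2.24% higher over all genes). Of those 22, 13 were higher and 9 lower, with a median of 0.12. Both MPS 10 and MPS 11 lay above NC for 5 and below it for 5. The labels name no muscle, and the part of body position in these results was not tested.

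Cntfr, the receptor of ciliary neurotrophic factor, had 19.4, 15.95 and 1.83 CPM in MPS, against 4.79, 3.80, 4.17 and 1.11 CPM in NC, and rose by 2.62 ± 0.40 (edgeR adjusted p = 0.0131). It was the 1 called (7.14%, beside 2.24% higher over all genes) of 14 genes of nerve growth factors and their receptors, whose median was -0.12.

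Some called genes stood in no list. Higher were Hypk, a chaperone partner of huntingtin, Svip, a brake on protein disposal at the endoplasmic reticulum, and Pcbp4, an RNA-binding protein, at 1.78, 1.79 and 1.54 (edgeR adjusted p = 0.0113 each). Ccs, the copper chaperone of superoxide dismutase, rose by 1.51 ± 0.21 (edgeR adjusted p = 0.0113). Lower were Slfn13, a nuclease of the Schlafen family, Tf, the iron carrier transferrin, and Zfp771, a zinc finger protein, at -2.10, -1.46 and -1.18 (edgeR adjusted p = 0.0131, 0.0191 and 0.0195). Zfp771 had 24.7, 23.3 and 21.8 CPM in MPS, against 64.6, 58.6, 77.6 and 63.5 CPM in NC, all 3 MPS libraries alike. Slfn13 had 3.76, 2.15 and 84.2 CPM in MPS, against 13.5, 14.03, 22.3 and 11.4 CPM in NC, with MPS 14 on the other side.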

How the data were processed

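Messenger RNA of rat muscle was sequenced with a SMARTER kit after RNeasy extraction, per the labels' protocols. The authors deposited a count and an FPKM value per gene and library, per the file headers; the counts entered every result and FPKM served only to check them. Among tools the submitters' processing notes list edgeR 3.30.3, StringTie 1.3.3b, HISAT2 and fastp; the genome build and the counting rules are not given in the sources used here. The deposited table comes in 2 identical copies, and 1 copy was used.

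Counts were fitted in R 4.3.3 with edgeR 4.0.16: filterByExpr, TMM factors, a robust quasi-likelihood fit of all 3 groups, and Benjamini-Hochberg adjustment over all genes tested (two-sided, threshold 0.05). The fit used 10 libraries, or 9 without MPS 14, and was tested on simulated counts. The gene lists (92, and 2 added after values were seen) and the members of the comparison were chosen with earlier results of these data known; 2058 of 2131 list entries matched a gene, 34 by an older name.

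Named genes follow a rule: without MPS 14 the 15 called genes each way of lowest p with no overlap, a mean of at least 1 normalised CPM and a proper name; 10 each way with all libraries; up to 4 per list; 8 each way between MPS 10 and MPS 11; and 5 each way in no list. Others were named to show a list after values were seen, and a few genes are not reported here. Alternatives were DESeq2 1.42.0, limma-voom (limma 3.58.1), RLE factors, library totals, other filters, a fit of MPS and NC alone, no mitochondrial transcripts, gene length offsets, a non-robust prior (added after the data were seen) and each library left out. Plots used matplotlib 3.10.9 under Python 3.11.15.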

Additional observations from a re-analysis of the deposited data

Results flagged for a closer look

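Among 116 sets of the 4 NC values that were examined, 8 had a library far from the other 3. For normally spread values chance alone gives about 1 set in 20. Most sets belong to genes picked for their MPS and NC values, so that rate is only a rough guide. Slc12a2 had 215 normalised CPM in NC 7, against 141, 148 and 147 in NC 4, 5 and 6. Entpd1 had 49.8 normalised CPM in NC 7, against 38.0 to 39.8 in the others. Pdgfra had 26.9 normalised CPM in NC 7, against 20.6 to 21.2 in the others. Pmp22, a myelin protein, had 81.9 normalised CPM in NC 7, against 40.8 to 46.9 in the others. Fcgr1a had 4.10 normalised CPM in NC 5, against 6.73 to 7.18 in the others. Cox7a1 had 0.461 normalised CPM in NC 4 and Pmp2 had 0.132 there, with 0 in the other 3 NC libraries. With 3 values at 0 the rule flags any other value, however small. The total count of NC 5 was 12616160, against 13426347 to 13581646 in the others. For the genes called lower in MPS, the outlying NC library was the highest of its group.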

How the results depend on the processing

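With all libraries the count of called genes, 0 by edgeR's quasi-likelihood test, became 205 by DESeq2 and 1453 at an unadjusted p under 0.05. Leaving out 1 library gave 0 to 362 genes, with 362 without MPS 14 and 0 without any other. Without MPS 14 the count of 362 became 1084 by DESeq2 (703 higher, 381 lower), 1278 in a fit of MPS and NC alone (865 higher, 413 lower), 64 by library totals and 2826 at an unadjusted p under 0.05. Leaving out a further library gave 2 to 1067 genes. The count was 358 with RLE factors, 388 by limma-voom, 423 with a mean of at least 5 CPM, 337 with no filter, 364 without mitochondrial transcripts, 326 with the non-robust prior and 258 with gene length offsets, of which 232 were shared. Of the 113 genes followed, 63 lost their call by library totals and 20 with gene length offsets; the cause was not tested. No paired analysis was possible because the MPS and NC libraries share no replicate number. Small changes were hard to detect. In simulated counts 12% of genes changed 2-fold and 80.7% changed 4-fold were called without MPS 14, and 0.0% and 28.1% with all libraries. Each simulation took its spread from the libraries of its own fit, so MPS 14 entered the spread of the one with all libraries. The shares thus do not compare numbers of libraries. Simulated libraries differed in total count and had no TMM factors built in.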

Other observations

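Other immune lists lay low in MPS 10 and MPS 11 with few or no calls. All 21 chemokine and receptor genes tested were lower without MPS 14 (median log2 fold change -0.92), and none was called. Of 23 complement genes 20 were lower (median -0.995), 13 had both MPS 10 and MPS 11 below NC, beside 18.6% of all genes, and C5ar1 was the 1 called (4.35%, beside 0.401% lower over all genes). The opsonin subunit C1qc had 17.7, 18.4 and 187 CPM in MPS, against 81.4, 49.5, 107 and 42.5 CPM in NC (edgeR adjusted p = 0.108). The cytokine Il18 had 0.121, 0.110 and 49.6 CPM in MPS, against 2.28, 1.27, 1.27 and 1.34 CPM in NC (edgeR adjusted p = 0.0684), so MPS 10 and MPS 11 stood below NC and MPS 14 above it.

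Genes of the neuromuscular junction and of stress hormones gave single calls, beside 2.24% called higher over all genes. Lrp4, the agrin receptor, had 14.9, 13.9 and 2.49 CPM in MPS, against 7.66, 6.66, 9.09 and 7.06 CPM in NC, and rose by 1.19 ± 0.28 (edgeR adjusted p = 0.0499), as 1 of 15 junction genes. Klf9, a glucocorticoid-induced transcription factor, had 48.4, 27.8 and 10.04 CPM in MPS, against 23.9, 18.4, 22.4 and 22.4 CPM in NC, and rose by 1.07 ± 0.22 (edgeR adjusted p = 0.0317), as 1 of 16. Markers of fat cells had a median of 1.01 over 13 genes with none called higher. Their sums overlapped between groups, at 2723, 5223 and 717 CPM in MPS, against 894 to 3025 CPM in NC. In the same list Pnpla2, the lipase that starts the breakdown of triglyceride, had 0.485, 0.275 and 4.11 CPM in MPS, against 4.05, 2.14, 5.59 and 7.88 CPM in NC, and fell by 3.39 ± 0.78 (edgeR adjusted p = 0.0454).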
